A study of Mus musculus with 4 samples.

Results

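The 57 genes described here encode the machinery that moves new proteins into the endoplasmic reticulum (ER), matures them there, and carries them to the Golgi, together with factors of the ER stress response. They were chosen by symbol from the 11883 genes of the authors' deposited table: 50 fit a pattern of symbols (Sec followed by a digit, Pdia, Ssr, Spcs, Srp and the Cop coat genes), and 7 were named singly (Xbp1, Atf4, Atf6, Ddit3, Ern1, Calr and Canx). By role they were 9 genes of the signal recognition particle and its receptor, 10 of the translocon, 5 of signal peptidase, 3 disulfide isomerases, 2 lectin chaperones, 11 of the COPII coat, 7 of the COPI coat, 5 stress sensors and factors, and 5 others. The others were the Sec22 family genes Sec22a, Sec22b and Sec22c, the COPII-binding protein gene Sec23ip, and Sec14l1, which the pattern takes by its symbol although its product is a lipid-binding protein of another family.

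RNA had been sequenced from live lung cells sorted for CD4 and T1/ST2, the interleukin-33 receptor encoded by Il1rl1, of C57BL/6 mice given papain, a protease allergen, on a chronic schedule. The 4 samples were of 2 genotypes with 2 samples each: Gata3(fl/fl), called control, and Klrg1Cre Gata3(fl/fl), called Klrg1Cre. All mice thus carried Gata3 alleles that Cre can cut, and the age of the mice is not given in the sources used here. No group carried Klrg1Cre without floxed Gata3, so effects of the Cre allele, of Gata3 loss in the sorted cells and of a lack of group 2 innate lymphoid cells (ILC2) elsewhere cannot be told apart. The deposited headers name the groups ILC2 deficient and WT. These were taken as Klrg1Cre and control, a link that the labels do not state. The labels do not say that samples came from separate mice, so any p-value here speaks only for these libraries, whose spread may be technical.
Gata3, the gene the Cre allele would delete where it acts, had deposited means of 293.9 CPM (reads relative to library size) in Klrg1Cre and 221.4 in control (the authors' p = 0.0115, adjusted p = 0.551), 1.33-fold higher. It therefore gives no check of the genotype labels, and which exons its reads cover is not known from the means. Every direction below rests on the column names and on the link made above.

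A secreted or membrane protein is recognised as it leaves the ribosome by the signal recognition particle, threaded through the Sec61 channel, trimmed by signal peptidase, and folded with the help of chaperones and disulfide isomerases. COPII-coated vesicles carry it forward to the Golgi, and COPI-coated vesicles bring escaped components back. When unfolded protein builds up, the sensors IRE1 (Ern1), ATF6 and PERK start the unfolded protein response, whose transcription factors XBP1, ATF6 and ATF4 raise folding capacity. T helper 2 cells secrete cytokines through this route.

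ATF6 and XBP1 act through short promoter elements, and the promoters of these genes were searched for a pair of them on both strands. The ER stress response element (CCAAT, 9 bases of any kind, CCACG) was present in 3 of 54 promoters of these genes (5.56%), against 39 of 32851 promoters of the same length in the whole RefSeq set (0.119%) and 14 of 12012 among genes in the table (0.117%). The core TGACGTGG of the unfolded protein response element was present in 5 of 54 (9.26%), against 222 of 32851 (0.676%) and 101 of 12012 (0.841%). The searched windows ran from 250 bases before to 50 after each transcript start in GRCm38.p6, and 50 of the 57 genes had one. Atf6, Ssr2, Spcs3, Sec61a1, Sec11c, Srp68 and Srp19 had none. The letters CCACG that end the first element also stand in the second when it is read on the opposite strand, but no promoter of these genes held both elements. The 3 promoters with the ER stress response element belong to Calr and Canx, which encode the lectin chaperones calreticulin and calnexin, and to the disulfide isomerase gene Pdia6. They are shown with the element's 2 ends in capitals, each on the gene's own strand, because they carry the same element in different genes of the folding machinery. In Calr the element reads on the opposite strand.
Calr, chr8:84847055-84847113, minus strand: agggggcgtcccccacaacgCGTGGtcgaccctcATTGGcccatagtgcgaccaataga
Canx, chr11:50325780-50325838, minus strand: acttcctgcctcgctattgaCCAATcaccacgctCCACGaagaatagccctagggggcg
Pdia6, chr12:17266471-17266529, plus strand: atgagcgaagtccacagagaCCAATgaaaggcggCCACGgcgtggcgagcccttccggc
The TGACGTGG element lay before the start of Sec16b, Sec24d and Copb1, and overlapped or followed it in Copb2 and Sec23a. Its surroundings are shown for a COPII cargo adaptor and a COPI coat gene, with the element in capitals, which in Copb1 reads on the opposite strand.
Sec24d, chr3:123267450-123267495, plus strand: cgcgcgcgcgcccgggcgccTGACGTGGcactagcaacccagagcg
Copb1, chr7:114254681-114254728, minus strand: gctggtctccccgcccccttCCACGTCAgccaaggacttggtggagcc
A match is a description of these letters, and no factor's binding was measured here. Of the 3 genes with the ER stress response element, Calr and Canx had been named singly when the genes were chosen. That element's share therefore rests partly on the choice of genes, and neither element's share was tested against the other promoters. Over all genes, 3.72% were higher and 3.37% lower in Klrg1Cre at the authors' unadjusted p below 0.05. None of the 8 genes with either element was at that level, and 0 of 8 is near this background. Leaving aside Sec16b, which had few reads, their deposited ratios ran from 0.770 for Sec23a to 1.07 for Calr, and the smallest p among them was 0.105, for Copb2.

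Most of the 57 genes had similar deposited means in both genotypes, and none passed the test over all genes. In the deposited comparison of the authors, 0 of 57 had an adjusted p below 0.05, where 7 of the 11883 genes did (0.0589%). The smallest adjusted p among the 57 was 0.313, for Spcs3. At an unadjusted p below 0.05, 2 had a higher mean in Klrg1Cre (3.51%, against 3.72% of all genes) and 3 a lower one (5.26%, against 3.37% of all genes), shares near the background. The 2 were Ddit3 and Srp68, and the 3 were Spcs3, Spcs2 and Sec22a. Limma, run on the 28 of these genes with library values and a mean of 1 CPM or more, also gave 0 adjusted p below 0.05, with 1 higher and 3 lower at an unadjusted p below 0.05. With any 1 library left out, limma gave 0 higher, and without the smaller control library it gave 1 lower, which was Spcs3.

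The direction leaned to lower means in Klrg1Cre. Of the 57, 21 (36.8%) had a higher mean in Klrg1Cre and 36 a lower one, whereas 50.6% of all genes had a higher one. Their median log2 ratio was -0.063, with quartiles of -0.20 and 0.05, and the median over all genes was 0.01, with quartiles of -0.23 and 0.22. Their summed mean was 0.949 times the control's. Within 1.25-fold were 44 of 57 (77.2%), against 63.6% of all genes. At 5 CPM or more it was 41 of 50 (82.0%), against 80.5% of the 6300 genes at that level, a share near the background. The genes share libraries and their levels are not independent, so the lean was not tested. In bulk RNA, fewer cells of a type and less RNA per cell cannot be told apart.

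The libraries behind the means held 26019065 and 14564426 reads in Klrg1Cre and 33379572 and 31961572 in control. Rn45s, the ribosomal RNA precursor, held 67.1% of Klrg1Cre reads and 51.4% of control reads (the authors' p = 0.709, adjusted p = 0.954). Reads not in the table made up 14.7% and 30.8%. Markers of the sorted cells were present: 7 of 10 T cell markers were listed, with summed means of 886 CPM in Klrg1Cre and 855 in control, and Il1rl1, a sort marker, had 59.1 and 67.99. Of macrophage and monocyte markers 16 of 16 were listed, summed at 1905 and 2701 CPM. That difference was Chil3's (1124 against 1932 CPM, the authors' p = 0.0165): the other 15 summed to 780.5 and 768.7 CPM, and 7 of the 16 had a higher mean in Klrg1Cre. Only 5 of 17 B cell and plasma cell markers were listed, summed at 4.69 and 7.41 CPM, 1 higher and 4 lower in Klrg1Cre. Jchain and Mzb1 were not listed, which does not show their absence, as the T cell markers Trac, Trbc1 and Trbc2 were not listed either. Sdc1, which was listed, had 2.77 and 3.16 CPM in the Klrg1Cre libraries and 5.27 and 3.19 in control (the authors' p = 0.189). Macrophages also express ER genes, and the part of these markers in the values above was not tested. Of lung epithelium markers 7 of 11 were listed and summed to 12.5 CPM in each genotype, but single ones differed both ways, with Epcam at 0.921 against 2.78 CPM (the authors' p = 0.0300) and Scgb1a1 at 4.23 against 2.57 (the authors' p = 0.0435). Of mast cell and basophil markers only Kit was listed, at 1.29 and 0.356 CPM.

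**Figure D1:**
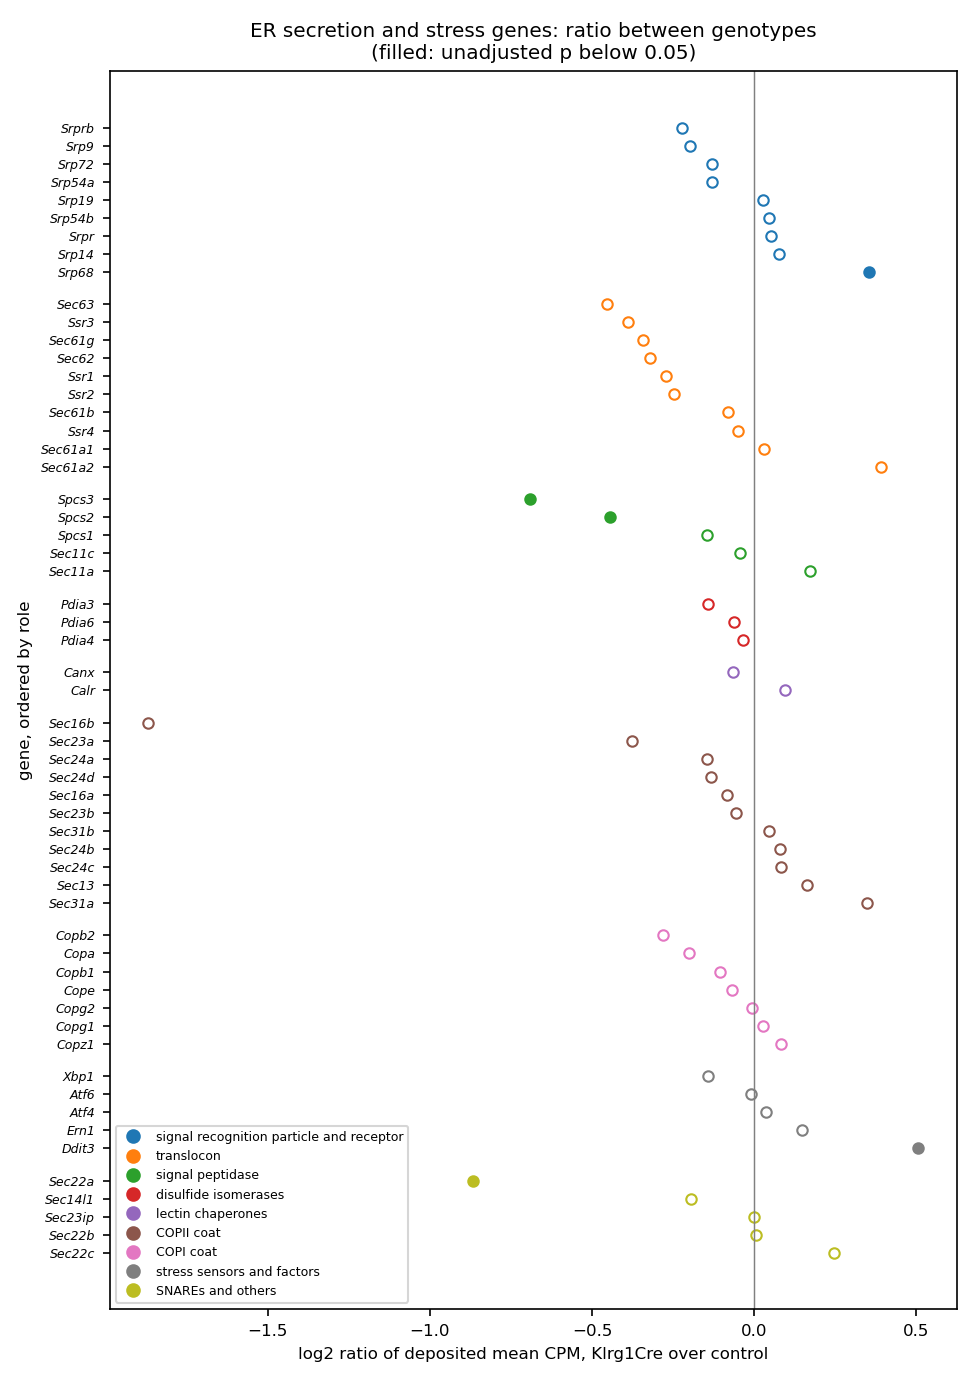
Log2 ratio of the authors' mean CPM (Klrg1Cre over control) for each of the 57 genes, grouped by role, with filled points for the 5 genes at an unadjusted p below 0.05. Most points lie close to 0, the 4 Ssr genes and the 3 Spcs genes all lie below it, and Sec16b, with few reads, lies farthest down at -1.87.

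**Figure D2:**
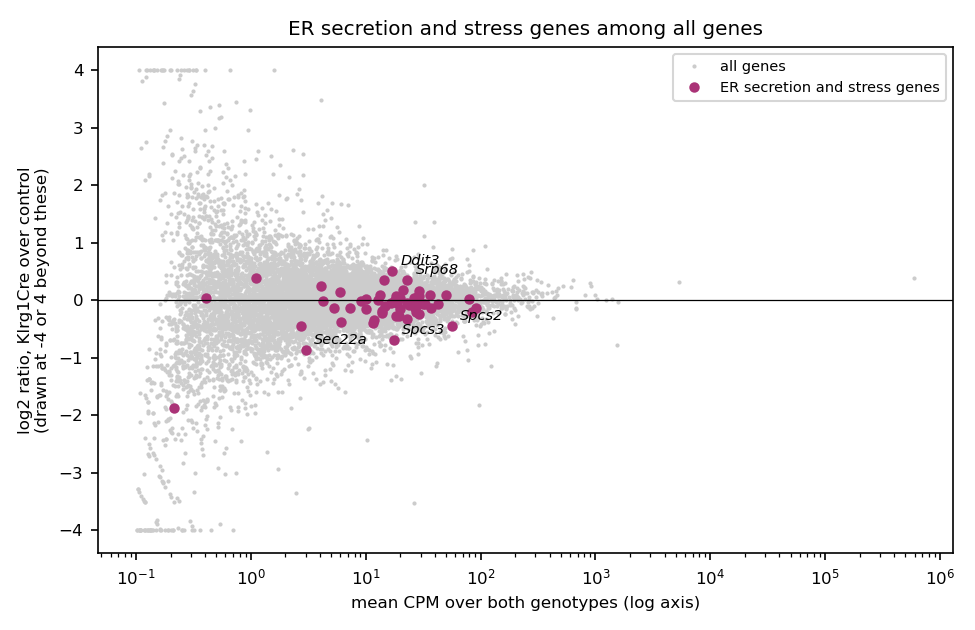
The log2 ratios of the 57 genes set among those of all 11883 genes against the mean CPM, with the mean on a log axis, genes below 0.1 CPM not drawn, and ratios beyond -4 or 4 drawn at those values. The 57 lie mostly within the middle of all genes, with a median of -0.063 against 0.01.

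The library values were worked out from the same deposited means, so they are not a separate measure of the lean. A group mean could be split into its 2 libraries for 30 of the 57 genes, and the other 27 stayed as means. Both Klrg1Cre libraries lay below both control libraries for 12 of the 30 (40.0%), where this held for 18.3% of the 5351 genes with a split. Both lay above for 2 of the 30 (6.67%), where this held for 19.3%. The 12 were Srp72, Srp9, Srprb, Sec61b, Ssr3, Spcs2, Spcs3, Pdia3, Sec16b, Copb1, Copb2 and Sec22a, and the 2 were Srp68 and Sec11a. Such an order can rest on a small gap, as for Sec61b, with a ratio of 0.945 (the authors' p = 0.593). Library values are given for the larger library of a genotype before the smaller, since their sample numbers are unknown.

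Signal peptidase, the complex that cuts signal peptides from proteins entering the ER, held the gene with the smallest p. Spcs3, an accessory subunit, had 13.3 CPM in the larger and 13.5 in the smaller Klrg1Cre library, and 22.6 and 20.7 CPM in the control libraries. Both Klrg1Cre values were thus below both control values, and libraries of a genotype were close together. The deposited means were 13.4 and 21.7 CPM, a mean 1.61-fold lower in Klrg1Cre in the authors' deposited table (p = 0.00195, adjusted p = 0.313). Limma on log2(CPM + 1) gave a difference of -0.65 (SE 0.15, 95% interval -0.998 to -0.30), and it lay between -0.71 and -0.59 with any 1 library left out. Spcs2, another subunit beside the catalytic ones, had 49.5 and 46.1 CPM in the Klrg1Cre libraries and 58.03 and 72.1 in the control libraries. Its groups did not overlap, and the control libraries lay farther apart than the Klrg1Cre libraries. The deposited mean was 1.36-fold lower in Klrg1Cre (p = 0.0152, adjusted p = 0.596 in the authors' deposited table), and limma gave -0.43 (SE 0.15, 95% interval -0.76 to -0.10), which came to -0.28 without the smaller control library and was then no longer at an unadjusted p below 0.05. Spcs1, the remaining accessory subunit, had deposited means of 18.997 and 20.997 CPM (the authors' p = 0.478).
The catalytic subunits had means close to control or higher. Sec11a had 21.3 and 23.2 CPM in the Klrg1Cre libraries and 19.9 and 19.6 in control, both above control, with a ratio of 1.13 (p = 0.295 in the authors' deposited table). Sec11c had 21.2 and 23.4 against 18.6 and 27.4 CPM, so its control libraries lay 1.48-fold apart and on either side of both Klrg1Cre libraries. Over the 5 genes the deposited means summed to 125 CPM in Klrg1Cre and 150 in control, a ratio of 0.829. Whether catalytic and accessory genes differed from each other was not tested.

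**Figure D3:**
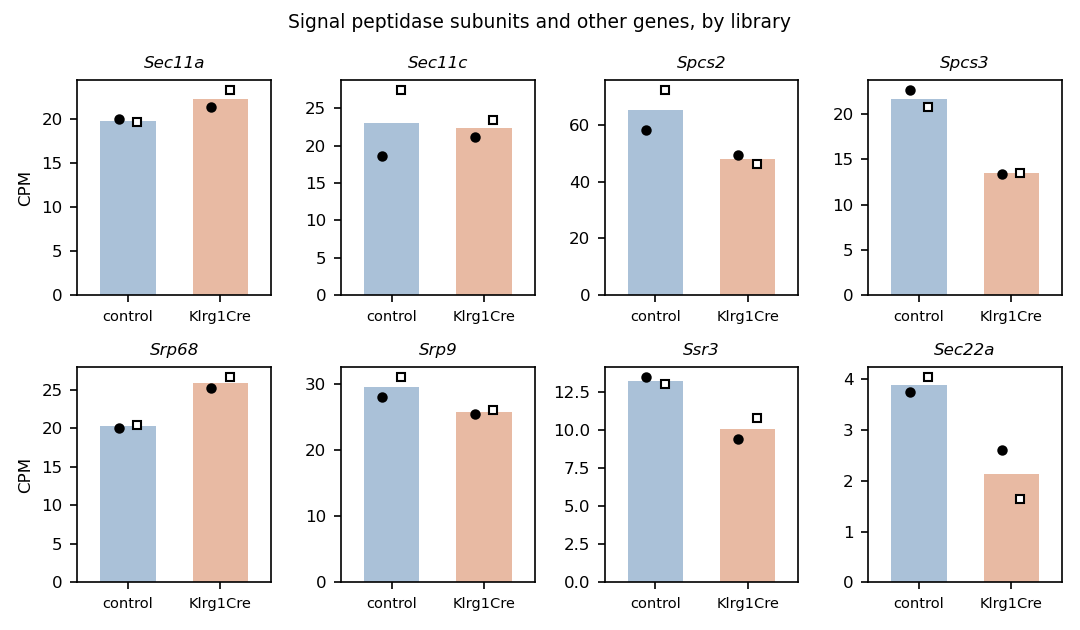
CPM in each library (points) and the mean (bars, starting at 0) for 4 signal peptidase genes and 4 others, control beside Klrg1Cre, with a filled circle for the larger and an open square for the smaller library. For Spcs3 both Klrg1Cre libraries, at 13.3 and 13.5 CPM, lie below both control libraries, at 22.6 and 20.7.

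The translocon, the channel and its partners at the ER membrane, had lower means in Klrg1Cre for 8 of its 10 genes, with a median log2 ratio of -0.26 and none at an unadjusted p below 0.05. Over all genes, 50.6% had a higher mean. Only 3 of the 10 had library values, and their common direction was not tested. The Sec61 channel is built from alpha, beta and gamma subunits. Sec61a1, the alpha subunit, had 78.2 and 81.9 CPM in the Klrg1Cre libraries and 71.99 and 84.9 in control, so the groups overlapped, and its ratio was 1.02 (p = 0.806 in the authors' deposited table). Sec61b, the beta subunit, had 24.1 and 22.5 CPM against 24.4 and 24.7. Sec61g, the gamma subunit, had deposited means of 10.4 and 13.2 CPM, 1.27-fold lower in Klrg1Cre (p = 0.0989 in the authors' deposited table). The channel-associated proteins encoded by Sec62 and Sec63 had means of 20.4 against 25.5 CPM (the authors' p = 0.0732) and of 2.33 against 3.18 CPM (the authors' p = 0.194). The translocon-associated protein complex, which helps some signal sequences into the channel, is encoded by Ssr1 to Ssr4. All 4 had lower means in Klrg1Cre, with a median log2 ratio of -0.26. Ssr3 had 9.38 and 10.8 CPM against 13.4 and 12.98, 1.31-fold lower (p = 0.0614, adjusted p = 0.711 in the authors' deposited table), and limma gave -0.36 (SE 0.17, 95% interval -0.75 to 0.03), an interval that includes 0. Ssr1 (17.8 against 21.5 CPM), Ssr2 (26.8 against 31.8) and Ssr4 (18.2 against 18.8) had deposited p-values between 0.121 and 0.759. Sec61a2, a second alpha gene, had 1.25 and 0.953 CPM.

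Per length, the RNAs of genes of the same role were present at different levels. Dividing the control means by the mean length of each gene's coding transcripts gave 43.6 CPM per kilobase for Sec61b, 24.7 for Sec61a1, 14.6 for Sec61g, 6.44 for Sec62 and 0.528 for Sec63. For signal peptidase the same measure gave 50.5 for Spcs2, 30.9 for Sec11c, 24.7 for Spcs1, 18.7 for Sec11a and 6.26 for Spcs3. With each gene's longest coding transcript in place of the mean, Spcs2 came to 22.4 and Sec11c to 26.7, so their order depends on the transcript used. Gaps between genes depend on it too: Sec61g then came to 7.10, near Sec62 at 6.44, and Spcs1 to 20.8, near Spcs2. These levels are approximate, because the transcripts used by the cells are unknown.

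The signal recognition particle and its receptor split between the directions. Srp68, a core protein of the particle, had 25.2 and 26.6 CPM in the Klrg1Cre libraries and 20.1 and 20.4 in control, both above, with a mean 1.28-fold higher (p = 0.0403, adjusted p = 0.691 in the authors' deposited table). Limma gave 0.34 (SE 0.15, 95% interval 0.01 to 0.66), and 0.30 to 0.38 with 1 library left out, none of these at an unadjusted p below 0.05. Its binding partner Srp72 had deposited means of 25.4 against 27.8 CPM. Srp9, which with Srp14 forms the Alu-domain dimer of the particle, had 25.4 and 26.1 CPM against 28.04 and 30.97 (the authors' p = 0.212), and Srp14 had 30.2 and 29.1 against 24.6 and 31.6, with overlapping groups. Of the receptor subunits, Srprb had 12.95 and 12.7 CPM against 15.9 and 14.1 (the authors' p = 0.233), and Srpr had 26.5 and 30.8 against 31.1 and 24.3, overlapping. Srp54a and Srp54b are near-identical copies, so reads can be split between them by the counting, and their means of 5.09 against 5.56 CPM and of 20.1 against 19.5 CPM are uncertain. Srp19, of the particle's S domain, had 10.2 against 9.99 CPM. The 9 genes summed to 184 CPM in Klrg1Cre and 183 in control.

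Folding enzymes and lectin chaperones had means near those of control, with none at an unadjusted p below 0.05. Pdia3, which forms disulfides in glycoproteins that calnexin and calreticulin hold, had the highest CPM of the 3 isomerases, a value not per length, at 87.9 and 84.1 in Klrg1Cre and 90.7 and 99.4 in control, with a ratio of 0.905 (p = 0.279 in the authors' deposited table). Pdia4 and Pdia6 had 28.7 against 29.3 CPM and 31.1 against 32.5 CPM. Calr had 14.5 and 13.3 CPM in the Klrg1Cre libraries and 13.9 and 12.01 in control, with overlapping groups (the authors' p = 0.595). Canx, of which the libraries were not worked out, had means of 32.2 and 33.7 CPM (the authors' p = 0.654).

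Vesicle coat genes had means close to control, with median log2 ratios of -0.057 for COPII and -0.069 for COPI and none at an unadjusted p below 0.05. In the COPII coat, Sec31a, of the outer cage, had a deposited mean of 16.1 against 12.6 CPM, 1.27-fold higher in Klrg1Cre (the authors' p = 0.124). Sec13, its cage partner, had 30.96 against 27.6 CPM (the authors' p = 0.301). Sec23a, an inner coat gene, had 5.34 against 6.94 CPM, 1.30-fold lower (the authors' p = 0.300), while its paralog Sec23b had 16.3 against 16.9. Of the cargo adaptors, Sec24c had the highest CPM, 51.2 against 48.3 (p = 0.548 in the authors' deposited table). Sec24d had 5.65 and 8.31 CPM in the Klrg1Cre libraries and 7.91 and 7.38 in control, so the Klrg1Cre libraries enclosed the controls. The other cargo adaptors Sec24a and Sec24b had 9.61 against 10.6 and 18.95 against 17.9 CPM, the scaffold Sec16a had 26.7 against 28.3, and Sec31b, at 0.413 against 0.400 CPM, was listed with few reads. Sec16b, an assembly factor, rested on 3 and 1 reads in the Klrg1Cre libraries and 12 and 10 in control (the authors' p = 0.145), too few for a fold change to be read. In the COPI coat, Copa, a large coatomer subunit, had the highest CPM, 78.4 against 90.2 (the authors' p = 0.143), and Copb2 had 16.3 and 16.8 CPM against 19.6 and 20.6, 1.22-fold lower (the authors' p = 0.105). Copb1 had 14.3 against 15.4 CPM, Cope 41.8 against 43.9, Copg1 29.1 against 28.5, Copg2 4.27 against 4.29 and Copz1 36.98 against 34.9.
Among the other 5 genes, Sec22a had 2.61 and 1.65 CPM in the Klrg1Cre libraries, from 68 and 24 reads, and 3.74 and 4.04 CPM in control, from 125 and 129 reads. Both Klrg1Cre values were lower, by 1.83-fold in the means (p = 0.0282, adjusted p = 0.637 in the authors' deposited table), and limma gave -0.66 (SE 0.25, 95% interval -1.21 to -0.11). That difference was at an unadjusted p below 0.05 only without the larger Klrg1Cre library, among the 4 fits with 1 library left out, and came to -0.44 without the smaller one. Sec22b, the SNARE of ER to Golgi traffic, had 21.2 and 14.9 CPM against 17.4 and 18.5, with a larger gap between the Klrg1Cre libraries than between the groups. Sec22c (4.45 against 3.75 CPM), Sec23ip (12.7 in each) and Sec14l1 (12.97 against 14.9) had deposited p-values between 0.418 and 0.997.

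**Figure D4:**
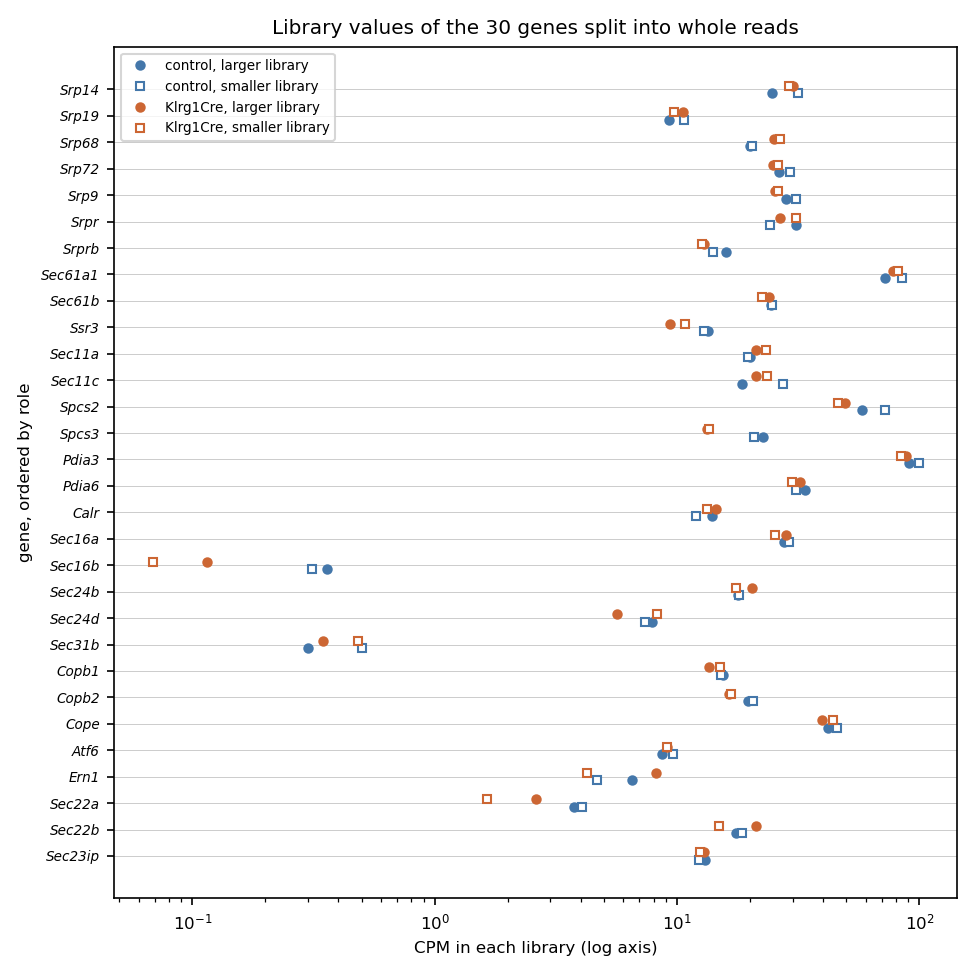
Library CPM for the genes that could be split, on a log axis, with filled circles for the larger and open squares for the smaller library of each genotype. Both Klrg1Cre libraries lie below both controls for 12 of the 30 genes and above them for 2.

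The stress factors gave no common direction. Ddit3, which encodes the stress factor CHOP, had deposited means of 19.8 CPM in Klrg1Cre and 13.97 in control, 1.42-fold higher (p = 0.0191, adjusted p = 0.608 in the authors' deposited table). Its libraries were not worked out, and its exons overlap Mars and Gm4189 on the opposite strand. Whether the counting used strand is not given in the sources used here, so reads from these genes cannot be told apart. Mars, the methionyl tRNA synthetase gene, had means of 21.4 and 19.4 CPM (the authors' p = 0.389). Atf4, the integrated stress response factor that induces Ddit3, had 26.8 against 26.2 CPM (the authors' p = 0.857). Xbp1 had 35.4 against 39.1 CPM (the authors' p = 0.328), a gene level that does not separate its spliced from its unspliced RNA. Atf6 had 9.07 and 9.13 CPM in Klrg1Cre and 8.66 and 9.67 in control (the authors' p = 0.970), with overlapping groups. Ern1, the IRE1 kinase and nuclease that splices Xbp1, had 8.19 and 4.26 CPM against 6.53 and 4.69, so its libraries lay 1.92-fold and 1.39-fold apart within the genotypes, and the difference of the means was smaller than either gap.
In all, exons of 16 of the 57 genes overlap a gene on the opposite strand, among them Spcs1 (Glt8d1), Copa (Ncstn), Pdia3 (Catsper2), Srpr (Fam118b) and Pdia6 (Atp6v1c2), and exons of 3 overlap one on the same strand. Spcs2, Spcs3, Srp68 and Sec22a had no such overlap.

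Other genes of the pathway were counted in lists kept apart from the 57. Of 24 measured ER chaperones and folding helpers, 7 had a higher mean in Klrg1Cre and 17 a lower one, with a median log2 ratio of -0.09. Of 22 genes of ER stress sensing and the integrated stress response, 17 were higher and 5 lower, with a median of 0.13. That median was 0.071 with a pseudocount of 5 CPM, and over the 17 of these genes with library values it was 0.17 by limma and 0.10 to 0.27 with 1 library left out. Of 22 genes of ER-associated degradation, 10 were higher and 12 lower (median -0.04), of 25 oligosaccharyltransferase and translocon partners 19 were higher and 6 lower (median 0.07), and of 39 coat partners and cargo receptors 21 were higher and 18 lower (median 0.0039). Over the genes with library values, the limma medians of the chaperone, degradation and oligosaccharyltransferase lists took either sign depending on which library was left out. The coat partners' median lay so near 0 that its sign carries no direction. None of the lists had a gene with an adjusted p below 0.05, and these counts stand beside 50.6% higher over all genes, with no test of any list.
Of the 22 genes of the stress list, 2 were higher and 2 lower at an unadjusted p below 0.05 in the authors' deposited table (9.09% each way, against 3.72% and 3.37% of all genes). Eif2ak3, the PERK kinase, had 4.82 against 2.74 CPM, 1.76-fold higher (the authors' p = 0.0343). Chac1, a glutathione-degrading target of the ATF4 arm, had 1.42 and 1.92 CPM in the Klrg1Cre libraries and 0.809 and 0.344 in control, 2.90-fold higher (the authors' p = 0.0224). It rested on 37 and 28 reads against 27 and 11, and its log2 ratio of 1.54 was 0.77 by limma on log2(CPM + 1) and 0.56 to 0.99 with 1 library left out, with 2 of these 4 fits not at an unadjusted p below 0.05. Ddit4, an inhibitor of mTORC1 signalling, had 15.99 and 15.8 CPM against 23.7 and 20.2, 1.38-fold lower (the authors' p = 0.0193). Eif2ak2, the double-stranded RNA-sensing kinase PKR, had 8.49 and 5.15 against 10.9 and 12.9, 1.74-fold lower (the authors' p = 0.0105). Its limma difference of -0.75 depended on the library left out. It was -1.06 without the larger Klrg1Cre library (limma, adjusted p = 0.0197) and -0.44 without the smaller one, and in the latter fit and without the smaller control library (-0.64) it was not at an unadjusted p below 0.05. Over the 17 genes of the list with library values, both Klrg1Cre libraries lay above both controls for 7 and below for 3, where all split genes gave 19.3% and 18.3%.
Outside the stress list, Hyou1, an ER chaperone, had 6.69 and 5.49 CPM against 4.19 and 3.41, 1.602-fold higher (the authors' p = 0.0301), and Erp44, which returns proteins to the ER, had a mean 1.45-fold lower, 11.996 against 17.4 CPM (the authors' p = 0.0175). Ube2j1, a ubiquitin-conjugating enzyme of the degradation route, was 1.51-fold lower, 12.9 against 19.5 CPM (the authors' p = 0.0110). Serp1, a translocon partner, had 44.6 and 40.5 CPM against 52.2 and 54.5, 1.25-fold lower (the authors' p = 0.0353), and Preb, the exchange factor that starts COPII assembly, had 24.5 against 19.2 CPM, 1.28-fold higher (the authors' p = 0.0444). Of 24 chaperones, 1 was thus higher and 1 lower at an unadjusted p below 0.05 (4.17% each), against 3.72% and 3.37% of all genes. Of 22 degradation genes 0 were higher and 1 lower (4.55%), and of 25 oligosaccharyltransferase and translocon partners 0 and 1 (4%). Of 39 coat partners and cargo receptors 1 was higher (2.56%) and 0 lower. These shares were near the background. With 1 library left out, limma kept an unadjusted p below 0.05 in 2 of 4 fits for Hyou1, 1 of 4 for Serp1 and 3 of 4 for Ddit4. The adjusted p-values of these genes, with those of the stress list above, lay between 0.551 and 0.698.

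**Figure D5:**
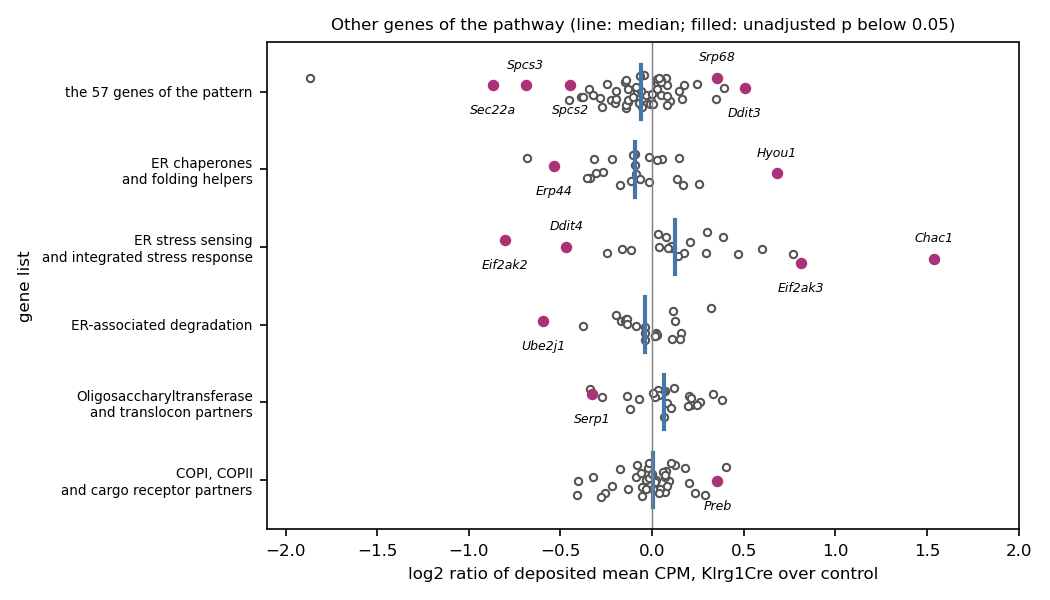
Log2 ratio of the authors' mean CPM (Klrg1Cre over control) for the 57 genes and for 5 lists of other pathway genes, each a point, with filled points at an unadjusted p below 0.05 and a line at each median. The medians run from -0.09 for ER chaperones to 0.13 for the stress list.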

How the data were processed

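Sorted lung Th2 cells of 4 samples, 2 per genotype, had been profiled by RNA-seq. STAR, Partek and mouse build mm9 are named in the submitters' processing notes, with no versions. Per the file headers, the deposited table holds 2 group means and the authors' p-values before and after adjustment. The authors' deposited means were taken, from their values, as CPM normalised to library size, to which an offset of 0.0001 had been added. The file headers name neither the unit nor the offset. The table also holds the ratio and signed fold change of the means. Its deposited signal column of totals is 2 times the summed means and was left aside. In all 11883 rows the deposited ratio equalled 1 mean over the other, and the adjustment of the authors' p-values was Benjamini-Hochberg over the whole table. The model behind them is not given in the sources used here.

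The plan named edgeR for per-sample counts and the authors' comparison otherwise. No column holds a single sample (0 such columns were left unused), so the authors' p-values were the main test, and only the alternatives below add to it. A group mean was split into its libraries where a single pair of whole read numbers gave it, to within 1e-09 reads. This succeeded in both groups for 5351 genes (45.0%) and was tried on simulated data. There, read numbers that were not whole had random fractions. Fractions in the real data may be of another kind, so the simulation cannot show that every split here is right. Libraries of a genotype differed by more than counting noise (chi-square per degree of freedom 8.04 for Klrg1Cre and 9.04 for control). Limma 3.58.1 in R 4.3.3, with a trended variance, was run on log2(CPM + 1) of the 4242 split genes at 1 CPM or more. Other alternatives were pseudocounts of 1 and 5 CPM, minimum means of 1 and 5 CPM, other scalings, and each library left out.

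The genes and lists were chosen with earlier results of these data known. The rule for named genes took every member at an unadjusted p below 0.05, the 5 highest and 5 lowest ratios at 5 CPM or more, the 7 genes chosen singly, the highest CPM in each role, and genes of the other lists at an unadjusted p below 0.05. Other members are given to account for all 57, and these were chosen after their values were seen. Promoters are RefSeq's, of GRCm38.p6. Transcript lengths and exon overlaps come from GENCODE on GRCm38, another build than the authors', and no coordinate of the authors' build is given.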

Additional observations from a re-analysis of the deposited data

How the results depend on the processing

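No paired analysis was possible because the deposited columns carry no replicate number, and edgeR and DESeq2 were not run because no column holds per-sample counts. The count at an adjusted p below 0.05 was 0 of 55 and 0 of 50 genes at minimum means of 1 and 5 CPM, and 0 of the 28 in limma, also with any 1 library left out. Pseudocounts and scalings leave the authors' p-values as they are and test no call. The 57 genes' median of -0.063 was -0.089 after rescaling to the listed genes without Rn45s, and -0.089 to -0.041 over those 28 genes with 1 library left out. Of the counts at an unadjusted p below 0.05, the 2 higher became 1 by limma, where Ddit3 has no library values, and 0 with any 1 library left out, and the 3 lower became 1 to 3. Rescaling moved the median of all genes by 0.026 and centring by 0.013, and either left 20 of the 57 higher in place of 21. The share of all genes that were higher moved too, from 50.6% to 47.4% by rescaling and to 49.0% by centring. Of 278 values of 32 named genes, 12, in 6 genes, reversed. None of these genes passed the adjusted threshold to begin with, so keeping its side shows no stability, and of the 9 at an unadjusted p below 0.05 with library values, 1 (Spcs3) stayed below it in all 4 fits with 1 library left out. Sec22b came to -0.021 rescaled, -0.0080 centred and -0.015 by limma. With 1 library left out, Sec22b ran from -0.25 to 0.23, Ern1 from -0.32 to 0.49, Sec61a1 from -0.084 to 0.15, Srp14 from -0.090 to 0.26, Calr from -0.0060 to 0.19 and Atf6 from -0.079 to 0.065. Eif2ak2 ran from -1.06 to -0.44, passing the threshold without the larger Klrg1Cre library (limma, adjusted p = 0.0197) and losing its unadjusted p below 0.05 without the smaller library of either genotype, with the lone library assumed to vary like the other group. The stress list's median of 0.13 was 0.071 with a pseudocount of 5 CPM. The coat partners' median of 0.0039 was -0.022 rescaled, -0.0089 centred and -0.021 by limma, the scalings being 1 shift for all genes. Over genes with library values, and so fewer genes, with 1 library left out it ran from -0.088 to -0.021, that of the oligosaccharyltransferase list from -0.062 to 0.057, of the chaperones from -0.16 to 0.015 and of the degradation list from -0.085 to 0.017. The cause of these changes was not tested. With 2 libraries a genotype, the number of samples limits what any test here can show, and genes such as Sec16b are limited by their few reads.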
